A study of Mus musculus with 6 samples.

Results

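The 10 transcription factors described here, *Nkx2-1*, *Sox2*, *Sox9*, *Foxa1*, *Foxa2*, *Foxp1*, *Foxp2*, *Foxp4*, *Gata6* and *Mycn*, are those usually named as lineage regulators of the lung epithelium. They were taken by symbol from the 24402 loci of the authors' deposited table, and each matched 1 locus. RNA came from whole lungs of mouse embryos (strain C57BL/6) at 12.5 *dpc* (days *post coitus*), with 3 libraries from wild-type embryos, which served as controls, and 3 from *Yap* mutant littermates (genotype Yap-flox/flox; Shh-Cre/+). Cre recombinase made from the *Shh* locus is active in the lung epithelium, and the Cre allele also replaces 1 working copy of *Shh*. Neither the floxed alleles nor Cre is listed for the controls. The table gives 1 pooled value per genotype in FPKM (fragments scaled to transcript length and to the number of mapped fragments), so the spread between embryos and the depth of each library are unknown and no difference below has been tested.

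The lung arises from foregut endoderm that switches on *Nkx2-1*. As the epithelium branches, cells at the bud tips are marked by *Sox9* and divide under the influence of *Mycn*, while cells left behind in the stalks take up *Sox2* and become the conducting airways. FOXA1 and FOXA2 are forkhead pioneer factors that open chromatin in endoderm, FOXP1, FOXP2 and FOXP4 are forkhead repressors of the lung, and GATA6 is a zinc-finger factor of endoderm that is also used in heart and mesenchyme. Several of the 10 are active outside the epithelium as well: *Sox9* in cartilage, *Sox2* in neural cells and oesophagus, and *Foxp1*, *Foxp4* and *Gata6* in mesenchyme or vessels. In RNA from whole lungs, fewer cells of a type and less RNA per cell cannot be told apart.

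Among the 10 factors, 9 had a lower value in *Yap* mutant than in control lungs and 1, *Gata6*, had a higher one. *Sox2* stood lowest, at 30.2% of its control level, and *Nkx2-1*, *Foxa1* and *Foxa2* lay between 52.5% and 58% of control. A ratio of at least 1.5-fold was used to describe a locus as lower or higher past the threshold, among the 12716 loci averaging 1 FPKM or more. Past this ratio, 4 of the 10 factors were lower (*Sox2*, *Foxa2*, *Foxa1* and *Nkx2-1*), beside 3.46% of all loci. The 1 factor that was higher past it, *Gata6*, stands beside 4.61% of all loci. The median log2 ratio of *Yap* mutant over control was -0.45 for the 10 factors and -0.01 for all loci, of which 51.8% were lower. On the same scale, 26 general epithelial genes had a median of -0.51, and 11 of them were lower past 1.5-fold and 0 were higher.

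**Figure D1:**
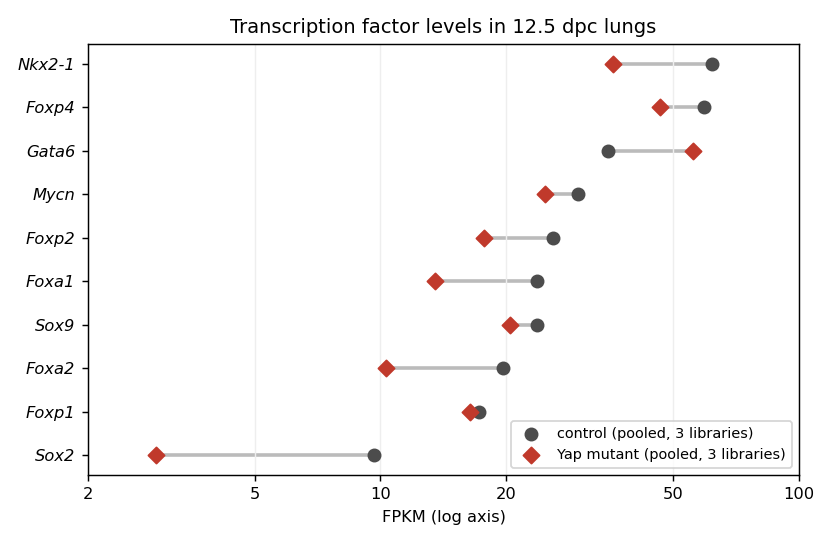
FPKM (log axis) of the 10 transcription factors in control (circles) and *Yap* mutant lungs (diamonds), 1 pooled value per genotype with no error bar. The 9 lower factors have their diamond on the left, with the longest gap at *Sox2* (9.65 and 2.91 FPKM), and *Gata6* has it on the right (35 and 56 FPKM).

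All 10 factors were above the minimum of 1 FPKM in both genotypes, though *Sox2* in mutant lungs was nearest to it. Because FPKM is scaled to transcript length, the levels of different genes can be set side by side. In control lungs the order was *Nkx2-1*, *Foxp4*, *Gata6*, *Mycn*, *Foxp2*, *Sox9*, *Foxa1*, *Foxa2*, *Foxp1* and *Sox2*, from 61.9 down to 9.65 FPKM, a range of 6.41-fold. In *Yap* mutant lungs *Gata6* came first at 56 FPKM and *Nkx2-1* came after *Foxp4*, and the range was 19.2-fold, down to 2.91 FPKM for *Sox2*. *Sox9* and *Foxa1* were level in controls at 23.7 FPKM each, but in mutant lungs *Sox9* was at 20.4 FPKM and *Foxa1* at 13.5 FPKM. Which neighbours in these orders differ beyond the spread between embryos was not tested.

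*Nkx2-1*, the homeobox gene that defines lung identity in the foregut, lies on chromosome 12 from 56531935 to 56536908 (minus strand, GRCm38, as for all positions below). Its value was 61.9 FPKM in the controls and 35.9 FPKM in the mutants, a log2 ratio of -0.79. As low a ratio or lower was found at 284 of the 12716 loci (2.23%). The level of *Nkx2-1* relative to *Foxa1* was nearly the same in both genotypes, at 2.62 and 2.66, so these factors had ratios of like size.

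*Foxa1* (chromosome 12, locus from 57540632 to 57622109, minus strand) had 23.7 FPKM in the controls and 13.5 FPKM in the mutants, a log2 ratio of -0.81. *Foxa2* (chromosome 2, 148042878 to 148046969, minus strand) had 19.6 and 10.3 FPKM, a log2 ratio of -0.93. These paralogs, which can stand in for each other in lung endoderm, were thus lower together, and their summed value went from 43.3 to 23.8 FPKM. The third member of the family, *Foxa3*, an endoderm factor better known from liver and gut, went the other way, from 0.348 to 2.76 FPKM.

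*Sox2*, the factor of the airway stalks, lies on chromosome 3 from 34649995 to 34652461 (plus strand). It had 9.65 FPKM in the controls and 2.91 FPKM in the mutants, a log2 ratio of -1.73. This was the lowest ratio of the 10, and only 57 of the 12716 loci (0.448%), *Sox2* included, had one as low. The locus in the table runs from 34560381 to 34677993, and *Sox2* overlaps the long noncoding gene *Sox2ot* on the same strand. *Sox2ot* has an entry of its own with the same range, at 0.0844 FPKM in the controls and 0.0982 FPKM in mutant lungs, but how reads were divided between the entries is not given in the sources used here.

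*Sox9*, the factor of the bud tips, lies on chromosome 11 from 112782210 to 112787757 (plus strand) and had 23.7 FPKM in the controls and 20.4 FPKM in the mutants. Its log2 ratio was -0.22, within 1.5-fold, and 11.3% of loci had one as low. The proximal and distal factors therefore differed in size of change: the level of *Sox2* relative to *Sox9* was 0.407 in control and 0.143 in mutant lungs, a difference in log2 ratio of -1.51. Cartilage genes, which share *Sox9* with the bud tips, had lower values in the mutant samples at 8 of the 10 loci that reached 1 FPKM. Of these, 3 were lower past 1.5-fold and 0 were higher, with a median log2 ratio of -0.47, and the summed level of the list was 134 FPKM in the controls and 92.6 FPKM in mutant lungs. *Col2a1* and *Col9a2*, collagen genes of cartilage, had 35.1 and 24.7 FPKM and 18.9 and 13.5 FPKM, while *Matn1*, a defining marker, and *Snorc* were listed at 0 in both. The part of cartilage in the *Sox9* value was not tested.

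Among neural and glial genes, which share *Sox2* with the airways, 4 of 13 were lower past 1.5-fold and 0 were higher, with a median of -0.45, which became -0.03 when a mean of at least 5 FPKM was asked for. Their summed level was 60.7 FPKM in the controls and 53.2 FPKM in mutant lungs, and *Sox10*, a factor of glia and neural crest, had 2.96 and 2.32 FPKM. Only 4 of 14 genes listed for oesophagus and other foregut reached 1 FPKM, and none (0) of the 4 was past 1.5-fold, with a median of -0.18. At a mean of at least 5 FPKM only *Osr1* remained, with 35.1 and 34.1 FPKM, a log2 ratio of -0.04. *Foxe1* and *Krt4* of that list were at 0 in both genotypes. The summed level of the list, most of it from *Osr1*, was 44.6 and 43.9 FPKM, so the list says little about oesophagus. The part of these cells in the *Sox2* value was not tested.

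The FOXP factors spread from little change to a moderately lower value. *Foxp2*, which is strongest in distal epithelium, lies on chromosome 6 from 14901248 to 15441977 (plus strand) and had 25.8 FPKM in the controls and 17.7 FPKM in the mutants. Its log2 ratio of -0.55, a 1.46-fold difference, is just inside the 1.5-fold threshold. *Foxp4* (chromosome 17, 47867131 to 47924757, minus strand), the most abundant of the family, had 59.4 and 46.5 FPKM, a log2 ratio of -0.35. *Foxp1* (chromosome 6, 98925169 to 99520636, minus strand), which is also expressed in vessels and mesenchyme, had 17.2 and 16.4 FPKM, a log2 ratio of -0.07, with 34.1% of loci as low. In control lungs *Foxp1* was at 0.666 of the level of *Foxp2*, and in mutant lungs at 0.928. The summed value of the 3 genes was 102 FPKM in the controls and 80.6 FPKM in mutant lungs.

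*Mycn*, a MYC family gene that drives division of bud tip cells, lies on chromosome 12 from 12936093 to 12941836 (minus strand). It had 29.7 FPKM in the controls and 24.7 FPKM in the mutants, a log2 ratio of -0.27 that 8.81% of loci reached or passed. Its paralog *Myc* had the higher value in mutant lungs, at 35.4 and 49.7 FPKM, so that *Mycn* was at 0.839 of the level of *Myc* in control and at 0.497 in mutant lungs. Summed over both genes, the level was 65 FPKM in the controls and 74.3 FPKM in mutant lungs. The third MYC gene, *Mycl*, had 8.11 and 7.17 FPKM, and *Max*, their common partner, had 38.3 and 35.9 FPKM.

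YAP acts on DNA through TEAD factors, so the promoter windows that RefSeq starts on GRCm38.p6 give for the factors (250 bases before to 50 after a start) were searched for the TEAD core GGAATG, on both strands. Windows were matched for 7 of the 10 genes, 11 windows in all, and *Sox9*, *Foxp2* and *Gata6* had none and were not searched. The paper's own search for this core reached farther before the start. The core occurred in 1 of them, at *Foxp1*, the factor whose value differed least, and in 14.7% of all 32851 windows. The forkhead core TGTTTAC, searched after the values were seen, occurred in 1 of the 11, at *Foxa1*, and in 3.65% of all windows. These 2 windows are printed with that of *Sox2*, the factor with the lowest ratio, which holds neither core, and capitals mark the match, which in both reads on the other strand. In *Foxp1* (chr6:99520944-99521243, minus strand) the match begins 134 bases before the start that gave the window. In *Foxa1* (chr12:57546062-57546361, minus strand) it begins 141 bases before the start that gave that window. Both windows lie inside the RefSeq range of their gene, whose upstream end is at 99522746 for *Foxp1* and 57548029 for *Foxa1*. These starts are therefore not the outermost ones of the 2 genes. The *Sox2* window is chr3:34649745-34650044, plus strand. A match is only a run of letters, and binding was not measured here.
Foxp1: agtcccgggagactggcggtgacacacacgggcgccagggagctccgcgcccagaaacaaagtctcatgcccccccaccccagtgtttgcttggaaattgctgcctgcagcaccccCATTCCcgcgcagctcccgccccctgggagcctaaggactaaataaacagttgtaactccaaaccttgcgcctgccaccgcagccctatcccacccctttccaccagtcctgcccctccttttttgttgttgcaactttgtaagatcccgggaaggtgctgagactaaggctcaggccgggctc
Foxa1: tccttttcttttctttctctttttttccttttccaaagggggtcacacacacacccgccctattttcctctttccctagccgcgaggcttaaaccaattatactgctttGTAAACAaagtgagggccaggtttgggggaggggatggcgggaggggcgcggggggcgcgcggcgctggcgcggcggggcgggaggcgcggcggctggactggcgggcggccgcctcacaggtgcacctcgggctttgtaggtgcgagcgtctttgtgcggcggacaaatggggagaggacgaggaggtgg
Sox2: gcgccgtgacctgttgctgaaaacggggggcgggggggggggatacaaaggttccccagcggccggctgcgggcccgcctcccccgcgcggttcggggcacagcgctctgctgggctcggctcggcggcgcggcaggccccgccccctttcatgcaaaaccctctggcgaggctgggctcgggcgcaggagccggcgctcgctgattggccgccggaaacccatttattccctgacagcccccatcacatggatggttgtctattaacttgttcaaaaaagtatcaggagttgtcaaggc

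**Figure D2:**
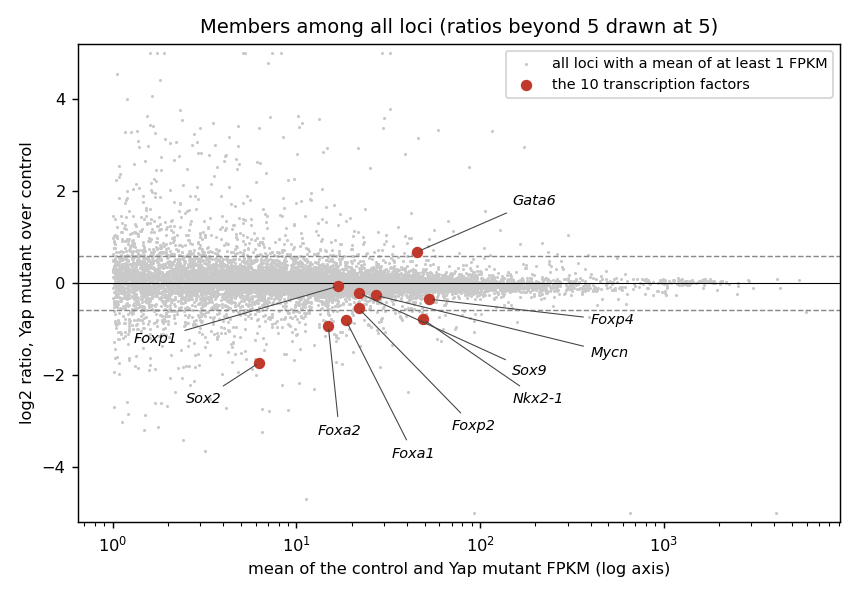
Log2 ratio of *Yap* mutant over control against mean FPKM (log axis) for all loci averaging 1 FPKM or more (grey; loci listed at 0 in 1 genotype are not drawn, and ratios beyond 5 are drawn at 5) and for the 10 factors (red), with dashed lines at a ratio of 1.5-fold. *Sox2*, *Foxa2*, *Foxa1* and *Nkx2-1* lie below the lower line and *Gata6* above the upper one, and the other 5 lie between them.

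*Gata6* (chromosome 18, 11052510 to 11085635, plus strand) was the exception, with 35 FPKM in the controls and 56 FPKM in the mutants. Its log2 ratio was 0.68, and 3.75% of loci had one as high. Among its relatives, *Gata4*, a heart and foregut factor, had 10.8 and 20 FPKM, *Gata5* had 28.8 and 39.4 FPKM, and *Gata2*, a blood and vessel factor, had 2.96 and 2.77 FPKM. Together *Gata4*, *Gata5* and *Gata6* had 74.6 FPKM in the controls and 115 FPKM in mutant lungs. The GATA cofactors *Zfpm1* and *Zfpm2* (FOG proteins) had 6.15 and 9.78 FPKM and 9.78 and 15.2 FPKM, and were the 2 of 27 partner and cofactor genes that were higher past 1.5-fold, where 0 were lower.

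Heart muscle RNA differed between the samples in the same direction as *Gata6*, which heart cells express. All 17 cardiac muscle loci averaging 1 FPKM or more, of 21 listed, were higher in the mutant samples, 16 of them past 1.5-fold. Their median log2 ratio was 3.15. Among them, *Myh7*, *Ryr2*, *Pln*, *Nppa* and *Nkx2-5* had control values below 1 FPKM and passed the filter only because of their mutant values. The counts of 17 and 16 therefore depend on the filter. Raising the minimum to 5 FPKM left the median at 3.15, though *Nppa* (0.581 and 57.9 FPKM) still passed. The summed level of the 21 genes was 157 FPKM in the controls and 1086.5 FPKM in mutant lungs, with no gene at 0 in either. *Myl7*, an atrial myosin light chain gene, had 39.3 and 306 FPKM, and the cardiac homeobox genes *Nkx2-5* and *Nkx2-6* had 0.526 and 5.41 FPKM and 0.141 and 10.4 FPKM. The part of heart RNA in the *Gata6* value was not tested. In lung mesenchyme, which also expresses *Gata6*, 16 of 24 genes had higher values and 8 lower ones, with 1 higher and 5 lower past 1.5-fold, a median of 0.08 and a summed level of 2238.1 and 2264.0 FPKM.

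**Figure D3:**
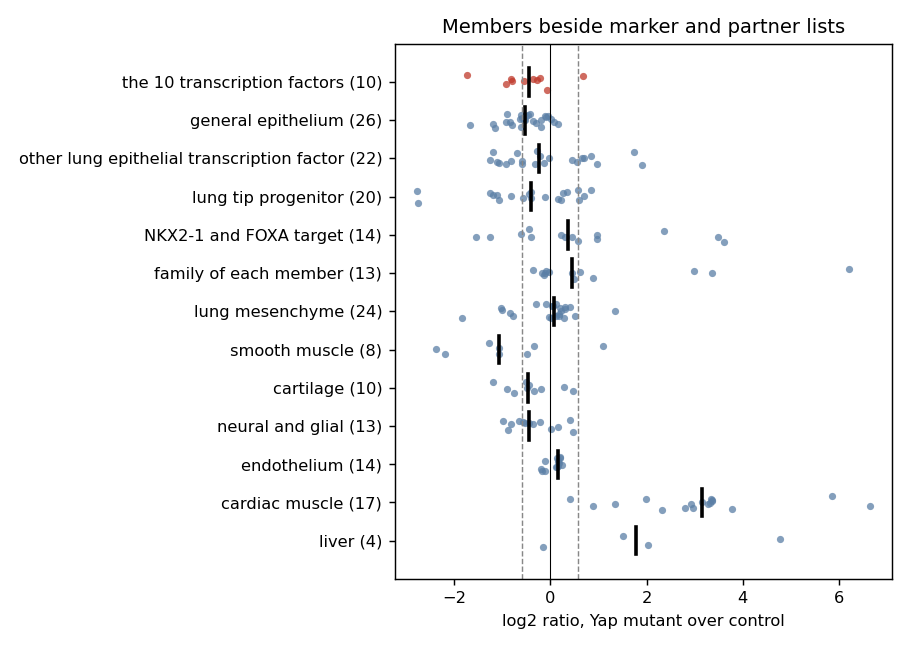
Log2 ratio of *Yap* mutant over control for the 10 factors (red) and for the genes of 12 lists averaging 1 FPKM or more (blue; number of genes in brackets), with a black bar at each median and dashed lines at a ratio of 1.5-fold. The medians of the 10 factors (-0.45) and of general epithelium (-0.51) lie close together, and that of cardiac muscle (3.15) lies far to the right.

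The factors were also set beside the general epithelial genes. Of the 26 that reached 1 FPKM, 23 had lower values in *Yap* mutant lungs, and the summed level of the 30 listed went from 583 to 435 FPKM. *Epcam*, a pan-epithelial adhesion gene, had 74.9 and 55.6 FPKM, and *Cldn6* and *Cldn4*, which encode tight junction claudins, had 98 and 64.7 FPKM and 19.6 and 8.87 FPKM. The protease inhibitor gene *Spint2* had 82.2 and 77.6 FPKM, so epithelial genes themselves did not share 1 ratio. Taken relative to the median of this list, the log2 ratio was -1.22 for *Sox2*, -0.42 for *Foxa2*, -0.30 for *Foxa1*, -0.27 for *Nkx2-1* and -0.03 for *Foxp2*. On that scale *Foxp4*, *Mycn*, *Sox9* and *Foxp1* changed sign, to 0.16, 0.25, 0.30 and 0.45, and *Gata6* was at 1.19. *Sox2* was then the 1 factor lower past 1.5-fold.

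Other transcription factors of the lung epithelium were split. Of 22 that reached 1 FPKM, 8 were lower and 6 were higher past 1.5-fold, with a median log2 ratio of -0.24, and *Lhx4* was listed at 0 in both genotypes. *Etv5*, an ETS factor of the bud tips that responds to FGF, had 86.9 FPKM in the controls and 36.3 FPKM in mutant lungs, and the Iroquois gene *Irx3* had 23.5 and 10.3 FPKM. *Irx1*, *Irx2* and *Irx5*, named after their values were seen, were lower as well, with log2 ratios of -0.82, -1.06 and -1.10. In contrast, *Id2*, an inhibitor of basic helix-loop-helix factors that marks tip progenitors, had 118 and 211 FPKM. *Cebpa*, a factor of alveolar type 2 and liver cells, had 4.62 and 15.3 FPKM, and *Elf5*, an ETS factor of tip epithelium, had 1.11 and 4.14 FPKM.

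Of 20 tip progenitor genes, 7 were lower and 3 higher past 1.5-fold, with a median log2 ratio of -0.41. The summed level was 570 and 571 FPKM. This list shares *Id2*, *Etv4*, *Etv5*, *Irx1*, *Irx2*, *Irx3* and *Irx5*, all past 1.5-fold, with the transcription factors just described. It is therefore not a separate result. *Shh*, the ligand made by the bud tips, had the lowest ratio, at 15.6 and 2.31 FPKM, but 1 of its copies is disrupted by the Cre allele. *Hhip*, a Hedgehog response gene, had 11.2 and 1.68 FPKM. Proximal airway genes were mostly below 1 FPKM at this stage, with 7 of 22 averaging at least that, of which 1 was lower and 2 were higher past 1.5-fold. The 2 higher genes, *Krt14* (0.884 and 1.84 FPKM) and *Tspan1* (0.846 and 5.81 FPKM), reached the mean of 1 FPKM only through their mutant value. The median of the 7 genes was 0.04 and depends on this filter. When a mean of at least 5 FPKM was asked for, only *Ngfr* and *Hes1* remained, and the median became -0.29.

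Genes known to be activated by NKX2-1 or the FOXA factors were divided. Of 14 that reached 1 FPKM, 3 were lower and 5 were higher past 1.5-fold, with a median log2 ratio of 0.37. *Etv5*, *Fgfr2*, *Wnt7b* and *Bmp4* of this list are also in the tip progenitor list. *Etv5* and *Hopx* are also among the other transcription factors. The surfactant protein genes *Sftpb* and *Sftpa1* had 4.55 and 55.1 FPKM and 1.76 and 19.7 FPKM, and *Sftpc* had 28.4 and 55.8 FPKM, all higher in the mutant samples. *Lamp3*, a lamellar body gene counted as higher, had 0.353 and 1.83 FPKM and reached the mean of 1 FPKM only through its mutant value. *Cldn18*, a lung claudin gene, was lower instead, with 12.8 FPKM in the controls and 4.35 FPKM in mutant lungs. *Scgb1a1*, a secretory protein gene of the airway, was listed at 0 in both genotypes, as was *Scgb3a1* of the proximal airway list.

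Of 13 relatives of the 10 factors averaging 1 FPKM or more, 6 had lower and 7 had higher values. Past 1.5-fold there were 0 lower and 5 higher relatives, with a median log2 ratio of 0.45, or 0.21 at a mean of at least 5 FPKM. The 5 were *Foxa3*, *Gata3* (0.945 and 1.44 FPKM), *Gata4*, *Nkx2-5* and *Nkx2-6*. All but *Gata4* were below 1 FPKM in the controls and reached the mean of 1 FPKM only through their mutant value. The counts and the median of the relatives therefore depend on this filter. The SoxC genes *Sox4*, *Sox11* and *Sox12*, which are broadly expressed in embryos, stayed close to control, at 84.5 and 77 FPKM, 26.7 and 26 FPKM, and 54.5 and 51.4 FPKM. *Nkx2-2* was listed at 0 in both genotypes. Among partners and cofactors the median was -0.04, and *Tead2*, the most abundant gene for a TEAD factor, the DNA-binding partners of YAP, had 170 and 156 FPKM.

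Loci beside the factors were examined next. The nearest locus of at least 1 FPKM on each side gave 20 neighbours with a median log2 ratio of -0.03. The locus of *Mipol1* and *Prps1l3* lies between *Nkx2-1* and *Foxa1* and is counted for both. Past 1.5-fold, 3 of the 20 were lower and 3 were higher, beside 3.46% and 4.61% of all loci. Only 11 of the 20 had the sign of their factor. Among the higher ones, *Kcnj2* (0.85) and *Mitf* (1.59) lay beside *Sox9* and *Foxp1*, whose ratios were below 0. *Mitf*, at 0.756 and 2.28 FPKM, reached the mean of 1 FPKM only through its mutant value. Of these 20, 4 lay within 10 kb of a factor, and those beside *Nkx2-1*, *Foxa2* and *Gata6* were past 1.5-fold in the direction of the factor. *E030019B13Rik*, 2.32 kb from the *Nkx2-1* locus (and overlapping *Sfta3-ps* in GENCODE), had 23.1 FPKM in the controls and 9.72 FPKM in mutant lungs, a log2 ratio of -1.25. An unnamed locus 2.6 kb from *Foxa2*, overlapping the noncoding gene *9030622O22Rik*, had 2.69 and 1.04 FPKM, a log2 ratio of -1.38. An unnamed locus 7.66 kb from *Gata6*, inside the noncoding gene *1010001N08Rik*, had 2.52 and 5.63 FPKM, a log2 ratio of 1.16. The fourth, 0.06 kb from *Foxp1*, had 1.11 and 1.12 FPKM.

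*4921506M07Rik*, whose range in the table is the same as that of *Foxa1* and which is not among the 20, had 1.33 and 0.732 FPKM, a log2 ratio of -0.86 beside -0.81 for *Foxa1*. An unnamed locus 64.3 kb from *Foxa1* was at -2.07, from 3.3 to 0.788 FPKM, whereas the locus of *Mipol1* and *Prps1l3*, 83.4 kb on the other side, was at -0.11. The loci next to *Sox2*, *Fxr1* at 479 kb and *Atp11b* at 1076.1 kb, had log2 ratios of 0.05 and 0.00. GENCODE places a gene on the opposite strand over part of *Nkx2-1*, *Foxp4* and *Gata6*, and *Gm20696* over much of *Foxp1* on the same strand. The library kit keeps strand, but whether the counting used it is not given in the sources used here, so reads from such pairs may not be told apart.

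**Figure D4:**
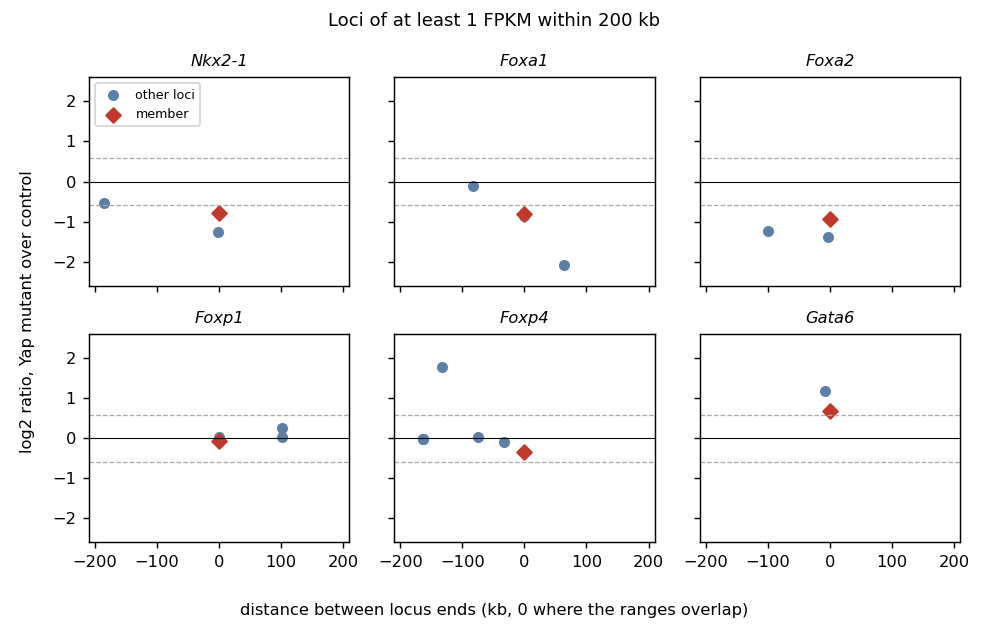
Log2 ratio of *Yap* mutant over control for loci of at least 1 FPKM within 200 kb of a factor, against the distance between locus ends in kb, for the 6 factors with such a locus; diamonds mark the factor, circles other loci, and dashed lines a ratio of 1.5-fold. A circle at *Foxa1* (*4921506M07Rik*) lies under the diamond, and the circles nearest to *Nkx2-1*, *Foxa2* and *Gata6* lie on the same side of 0 as the diamond and farther from it.

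Other features of the samples bear on every value above. *Yap1* itself had 76.1 FPKM in the controls and 65.6 FPKM in mutant lungs, and the pooled values cannot show the deletion in the epithelium alone. Of the Y-linked genes, chosen after their values were seen, *Uty*, *Kdm5d*, *Ddx3y* and *Eif2s3y* reached no more than 0.0163 FPKM in the controls but 4.61 to 16.5 FPKM in the mutants. *Xist*, which is made from the inactive X chromosome of females, had 97 FPKM in the controls and 50.4 FPKM in mutant lungs, so *Xist* was present in both genotypes and the Y-linked genes were at or near 0 in the controls. Differences of sex and of genotype cannot be told apart. Smooth muscle genes had a median log2 ratio of -1.06 (5 of 8 lower and 1 higher past 1.5-fold), endothelial genes 0.15 (0 of 14 past 1.5-fold), erythroid genes 0.28 (1 of 9 higher past 1.5-fold) and liver genes 1.78 (3 of 4 higher past 1.5-fold). At a mean of at least 5 FPKM only *Afp* and *Ttr* of the liver list remained, with a median of 3.41. *Afp* had 5.42 and 22.3 FPKM and *Ttr* had 0.492 and 13.5 FPKM, and they made up most of the summed liver level. *Alb*, the albumin gene, was not higher, at 1.28 and 1.14 FPKM. Summed levels in control and mutant lungs were 295 and 152 FPKM for smooth muscle, 310 and 333 FPKM for endothelium, 5177.2 and 5675.1 FPKM for erythroid genes, and 9.77 and 42.2 FPKM for liver. The part of these cells in the factors' values was not tested.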

How the data were processed

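Whole-lung RNA of 3 control and 3 *Yap* mutant libraries at 12.5 *dpc* was sequenced by the authors from stranded paired-end libraries on HiSeq instruments and analysed on the Maverix platform. The submitters' processing notes name TopHat, Cuffdiff and mm10, without versions. The authors deposited 1 FPKM value per genotype for each of 24402 loci, pooled over its libraries. The unit was read from the Cuffdiff layout of the table. Depth per library is unknown. The authors' own log2 fold changes and unadjusted p-values, and a second table of loci they selected, were not used. No test was made, since each genotype has 1 value.

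Log2 ratios of *Yap* mutant over control were computed without a pseudocount, and loci averaging 1 FPKM or more (12716) with a ratio of at least 1.5-fold were counted. A locus below 1 FPKM in 1 genotype could reach this mean through the other. The counting was tested on simulated data. The members and gene lists were chosen with earlier results of these data known, and members were taken out of every list. Genes named are the 10 factors, their relatives of at least 1 FPKM, their neighbours, *Yap1* and *Shh*, and in each list those with the 3 highest means or up to 4 largest ratios. Genes listed at 0 in both genotypes and *Max* were also named, after their values were seen. So were genes in more than 1 list and genes below 1 FPKM in the controls, where this limits a count. Lists that share genes are not separate results. Older symbols were matched through RefSeq. Locus starts count from 0 in the table, and 1 was added. Neighbours were named with GENCODE M21. Python 3.11.15, numpy 2.4.6, pandas 2.3.3 and matplotlib 3.10.9 were used.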

Additional observations from a re-analysis of the deposited data

How the results depend on the processing

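With 1 pooled value per genotype, no library could be left out, and the ratios have no error from replicates. No paired analysis was possible because the table holds no value per library. Of 60 ratios of the 10 factors under other settings, 4 changed sign, all relative to the general epithelium median. That setting left 1 factor lower past 1.5-fold instead of 4 and moved the median of the factors from -0.45 to 0.06. At a ratio of 2-fold, 1 factor was lower and 0 were higher. Adding 0.1 or 1 FPKM, centring on all loci, equal sums, equal upper quartiles, and a mean of at least 5 FPKM or no filter changed neither count, and moved the median by less than 0.1. With 1 FPKM added, however, the log2 ratio of *Sox2* moved from -1.73 to -1.44. Of the list medians, 1 of 48 changed sign, that of proximal airway genes.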
